A study of Mus musculus with 4 samples.

Results

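The comparison set skin of mice that received IL-17A mini-circle DNA and IMQ against skin of mice that received GFP mini-circle DNA and IMQ, over every gene with a named probe above background. It used 2 of the 4 arrays of the study, with 1 array on each side. Of 19057 genes with a probe of 1 gene symbol, 12729 were above the detection limit on at least 1 of the 4 arrays, 12165 on at least 1 of the 2 IMQ arrays and 10830 on both. All mice were C57BL/6J, aged 8 to 12 weeks, all skin was dorsal, and each array held RNA pooled from 6 mice. The 4 groups were IL-17A mini-circle with IMQ, GFP mini-circle with IMQ, IL-17A mini-circle alone and GFP mini-circle alone. A mini-circle is a small circular expression vector, and GFP (green fluorescent protein) served as the control insert. The group names stand for the injected DNA, and whether the skin itself took it up is not stated. IMQ is the usual abbreviation of imiquimod, an agonist of Toll-like receptors that is used to inflame mouse skin. Its dose, schedule and route were not in the labels, and the control of this comparison carried IMQ too. The pools hide differences between mice, all 4 arrays were positions of 1 chip, and position and group cannot be told apart. With 1 array in each group there is no replicate error, so no test was made, and higher and lower describe these pools only.

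IL-17A is a cytokine of T cells and of innate lymphocytes. It binds a receptor made of IL-17RA and IL-17RC on keratinocytes and stromal cells, and signals through the adaptor Act1 to NF-kB and C/EBP factors and to proteins that stabilise messenger RNA. In skin it is known for inducing neutrophil-attracting chemokines, antimicrobial peptides and a thickened, altered epidermis, and the imiquimod model of psoriasis depends largely on the IL-23 and IL-17 axis. The comparison asks how skin after IL-17A gene transfer differs from skin after control transfer when both are under IMQ.

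A signal below is the deposited background-subtracted intensity of a gene's probe, in linear units of the scanner. A fold or a log2 difference comes from the normalized values, to which the background step had added an offset of 50, so that folds of dim genes are smaller than the ratio of their signals. The limit of detection was 11.8 for IL-17A + IMQ skin and 11.6 for GFP + IMQ skin, and 11532 and 11463 genes lay above it. Trim50 and Foxl2 were the genes nearest inside the limit, with signals of 11.59 in GFP + IMQ skin and 11.83 in IL-17A + IMQ skin. Lyzl4 and Snapc5 were the nearest outside it, both at 11.81 in IL-17A + IMQ skin. These 4 genes are named for their place at the limit alone.

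The keratinocyte markers Krt5, Krt14, Krt1 and Krt10, the main keratins of basal and suprabasal epidermis, were bright on both arrays and had log2 differences of -0.06, -0.07, -0.06 and -0.03. Their summed signal was 85697 in IL-17A + IMQ skin and 91019 in GFP + IMQ skin. The Il17a probe read 14.4 in IL-17A + IMQ skin, against 11 in GFP + IMQ skin. That is above the limit on the first array and under it on the second, with a log2 difference of 0.06. The labels cannot be checked by this signal, because it is unknown if the probe reads mini-circle RNA.

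Among the 12729 genes, 135 (1.06%) were higher in IL-17A + IMQ skin than in GFP + IMQ skin by 2-fold or more, and 36 (0.283%) were lower by as much. A count of 0 in a short gene list below is near these shares and sets no list apart. Detected members of a list are those above the limit on at least 1 of the 4 arrays. A few of them were below it on both IMQ arrays and could not be called. The median log2 difference over all genes was 0.004, its SD over genes was 0.32, and 95.6% of genes lay within 1.5-fold. Sizes were unequal on the 2 sides: 36 genes were higher by 4-fold or more and 1 was lower by as much, and by 8-fold or more 6 genes were higher and 0 lower. In 13 of the 135, GFP + IMQ skin was not above its limit, and their folds are given as lower bounds. With those folds 134 of the 135 stayed at 2-fold or more. At the edge of the 2-fold rule, Krt82 lay just outside on the upper side with a log2 difference of 0.99. On the lower side Cfap57 lay just inside and Pon1 just outside, both at 2.00-fold after rounding, and these 2 are named for that place alone.

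**Figure D1:**
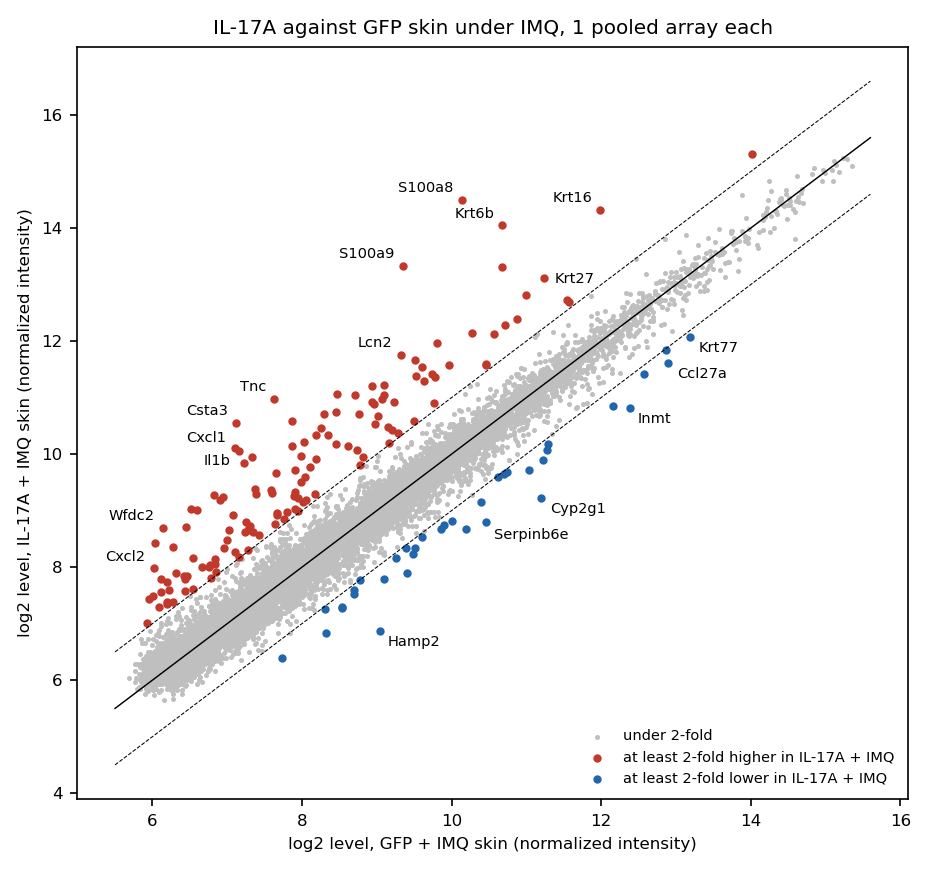
Each point is 1 of 12729 genes, with its log2 level in IL-17A + IMQ skin on the vertical axis and in GFP + IMQ skin on the horizontal axis (normalized intensity, 1 pooled array each). The solid line marks equal levels and the dashed lines a 2-fold difference. The 135 higher genes reach farther from the line than the 36 lower ones, with S100a8 at 20.5-fold and Hamp2 at 4.48-fold as the far points.

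The largest difference was that of S100a8, which with S100a9 forms calprotectin, an antimicrobial complex of neutrophils and stressed keratinocytes. Its signal was 21448 in IL-17A + IMQ skin, against 974 in GFP + IMQ skin, a difference of 20.5-fold. S100a9 read 9479 in IL-17A + IMQ skin, against 532 in GFP + IMQ skin, or 15.8-fold higher. The levels of both in GFP + IMQ skin were close to those of skin with the GFP mini-circle alone, where S100a8 read 1011 and S100a9 read 546. The 2 genes are neighbours in the genome. Of 12 detected S100 genes, these 2 and the hair shaft gene S100a3 were at least 2-fold higher, and the list median was 0.03. S100a7a, a relative of psoriasin, had a log2 difference of 0.93.

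Antimicrobial and acute-phase genes held 23 detected members, of which 6 passed the 2-fold line upward and 0 downward, and the median was 0.50. Lcn2, which binds bacterial iron carriers, read 3228 in IL-17A + IMQ skin, against 522 in GFP + IMQ skin, or 5.38-fold higher. The acute-phase gene Saa3 read 4754 in IL-17A + IMQ skin, against 1492 in GFP + IMQ skin, a difference of 2.94-fold. Slpi, an inhibitor of neutrophil elastase, was 3.25-fold higher, the chitinase-like gene Chil1 2.93-fold and Wfdc12, a whey acidic protein-type inhibitor, 2.44-fold. Saa1 was 4.26-fold higher by its brighter probe, but a second Saa1 probe had a log2 difference of -0.20, the only one of 37 second probes of higher genes that ran the opposite way. The beta-defensins Defb4 and Defb14 had log2 differences of 0.89 and 0.50, under the 2-fold line.

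A few chemokines that attract neutrophils and monocytes were higher. Cxcl1, a ligand of the neutrophil receptor Cxcr2, read 1020 in IL-17A + IMQ skin, against 66.8 in GFP + IMQ skin, a difference of 8.08-fold. Its neighbour Cxcl2, a second ligand of Cxcr2, read 187 in IL-17A + IMQ skin, against 0.701 in GFP + IMQ skin, below the limit there, and was at least 3.32-fold higher. Cxcr2 itself was 2.54-fold higher. These were the 3 of 14 CXC chemokine and receptor genes past the line, and the median was -0.04. Among 20 CC chemokine and receptor genes, Ccl4, Ccl7 and Ccl3, which attract monocytes and other leukocytes, were 5.46-fold, 3.52-fold and at least 2.79-fold higher. Ccl4 read 545 in IL-17A + IMQ skin, against 44.9 in GFP + IMQ skin, and a second Ccl4 probe had a log2 difference of 0.96, under the 2-fold line. Ccl27a, a keratinocyte chemokine for skin-homing T cells, was the lower member: it read 2959 in IL-17A + IMQ skin, against 7040 in GFP + IMQ skin, a difference of 2.44-fold. Ccl20, a ligand that draws IL-17-producing cells, differed by -0.00 on the log2 scale.

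The start regions of 5 of these genes are shown, because Cxcl1 and Cxcl2 and likewise S100a8 and S100a9 are neighbours that were higher together and Lcn2 is a textbook target of IL-17A. They are RefSeq promoter windows of GRCm38.p6, from 250 bases before to 50 bases after the listed start, written along the gene's strand, with motif matches in capitals. Cxcl1 lies at chr5:90890995-90891294 (+), Cxcl2 at chr5:90903649-90903948 (+), S100a8 at chr3:90668821-90669120 (+), S100a9 at chr3:90695672-90695971 (-) and Lcn2 at chr2:32387690-32387989 (-).
Cxcl1: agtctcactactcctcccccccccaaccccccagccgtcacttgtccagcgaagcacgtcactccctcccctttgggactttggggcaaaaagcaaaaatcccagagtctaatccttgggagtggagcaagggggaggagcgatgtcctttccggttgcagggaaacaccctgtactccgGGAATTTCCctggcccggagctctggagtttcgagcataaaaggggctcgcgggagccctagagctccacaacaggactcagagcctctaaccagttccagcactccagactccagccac
Cxcl2: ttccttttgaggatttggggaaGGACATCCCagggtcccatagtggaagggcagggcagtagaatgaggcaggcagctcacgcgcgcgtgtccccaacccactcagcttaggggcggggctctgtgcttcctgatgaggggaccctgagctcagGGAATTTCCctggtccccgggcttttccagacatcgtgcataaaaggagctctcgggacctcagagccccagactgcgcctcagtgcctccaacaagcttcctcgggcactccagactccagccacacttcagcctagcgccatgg
S100a8: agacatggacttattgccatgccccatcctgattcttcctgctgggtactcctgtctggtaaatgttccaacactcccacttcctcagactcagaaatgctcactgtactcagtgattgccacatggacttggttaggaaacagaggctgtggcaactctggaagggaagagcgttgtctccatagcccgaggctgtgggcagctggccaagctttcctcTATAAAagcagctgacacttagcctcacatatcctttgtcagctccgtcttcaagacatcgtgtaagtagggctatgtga
S100a9: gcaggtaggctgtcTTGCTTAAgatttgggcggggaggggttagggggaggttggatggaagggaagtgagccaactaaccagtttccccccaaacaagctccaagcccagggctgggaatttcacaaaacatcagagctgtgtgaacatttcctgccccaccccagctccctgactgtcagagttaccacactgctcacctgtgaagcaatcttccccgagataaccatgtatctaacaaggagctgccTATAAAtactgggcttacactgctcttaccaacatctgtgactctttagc
Lcn2: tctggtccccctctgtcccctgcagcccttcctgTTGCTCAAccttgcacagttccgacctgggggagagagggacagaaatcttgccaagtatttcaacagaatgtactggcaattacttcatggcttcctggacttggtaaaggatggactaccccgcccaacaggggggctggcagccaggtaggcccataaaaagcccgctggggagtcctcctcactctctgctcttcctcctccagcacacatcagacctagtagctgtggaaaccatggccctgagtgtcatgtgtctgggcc
The capitals of Cxcl1 mark an NF-kB core at bases 181 to 189 of its window, and Cxcl2 holds the same 9 letters at bases 155 to 163 and a second core at bases 23 to 31. S100a9 and Lcn2 each hold a C/EBP match, at bases 15 to 22 and 35 to 42. S100a8 holds the TATA box letters at bases 221 to 226, before its start. In S100a9 the same letters lie at bases 251 to 256, on the listed start itself, and are not a TATA box of that start.

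The letters searched, on both strands, were GGANNTTCC, GGANNTCCC or GGGNNTTCC for the NF-kB core, TTGCNNAA for C/EBP, TGAGTCA for AP-1, TTCNNNGAA for STAT and TATAAA for the TATA box. Of the 171 called genes, 140 had a window, 110 of them higher and 30 lower. The NF-kB core was found in 15.5% of the higher genes' windows and in 23.3% of the lower genes' windows, against 14.2% of the 10223 windows of genes above the limit and 12.0% of all 27025 promoters. The C/EBP letters were in 18.2% and 16.7%, against 9% of genes above the limit and 10.8% of all promoters. The AP-1 letters were in 12.7% and 6.67%, against 4.23% and 5.17%. STAT letters were in 17.3% and 10%, against 7.21% and 8.47%. The TATA box letters were in 53.6% and 26.7%, against 9.29% and 14.2%. Without hair shaft and Krtap genes, the shares of the remaining 73 higher genes were 19.2% for the NF-kB core, 24.7% for C/EBP, 12.3% for AP-1, 12.3% for STAT and 38.4% for the TATA box letters. These shares describe letters in windows, not binding, and the windows use the first listed start of a gene.

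**Figure D2:**
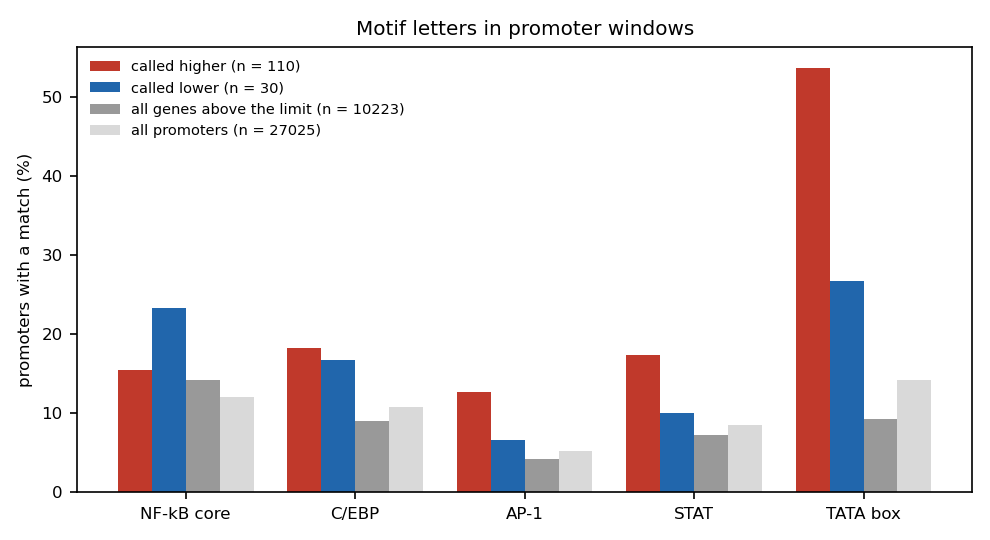
Bars give the percentage of promoter windows that hold each motif's letters, for genes called higher, genes called lower, all genes above the limit and all promoters. The TATA box letters are in 53.6% of the higher genes' windows and 9.29% of those of all genes above the limit, while for the NF-kB core these shares are 15.5% and 14.2%.

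Cytokine genes past the line were few. Il1b, which encodes a central inflammatory cytokine of myeloid cells, read 983 in IL-17A + IMQ skin, against 72.8 in GFP + IMQ skin, or 7.44-fold higher. Il33, an alarmin stored in keratinocyte and stromal nuclei, read 1070 in IL-17A + IMQ skin, against 262 in GFP + IMQ skin, a difference of 3.30-fold. They were 2 of 15 detected IL-1 family genes, whose median was 0.00, and Il1a, Il1rn and the IL-36 genes Il1f6 and Il1f8 had log2 differences of -0.06, 0.16, 0.57 and -0.07. Of 21 genes of the IL-6 and IL-20 families and of STAT3 signalling, 4 were higher. Il19 and Il24, cytokines of the IL-20 family that act on keratinocytes, were at least 2.26-fold and 2.40-fold higher. Osm, which encodes oncostatin M, was at least 2.04-fold higher, and Socs3, the feedback inhibitor of STAT3 signalling, 2.03-fold. Il6 had a log2 difference of 0.90. In the IL-23 and TNF axis 0 of 11 detected genes passed the line, with Tnf at 0.10 and Il23a at -0.02.

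Of 23 detected genes of the IL-17 receptor and its signalling 0 passed the 2-fold line either way, the median was 0.13, and the values ran from -0.32 for Traf2, a signalling adaptor, to 0.70 for Nfkbiz, which encodes the NF-kB cofactor I-kappa-B-zeta. The receptor genes Il17ra, Il17rc, Il17rd and Il17re had log2 differences of 0.12, 0.07, 0.03 and 0.10. Traf3ip2, which encodes Act1, was at -0.05. Zc3h12a, an endonuclease that degrades cytokine messenger RNA, was at 0.64. Cebpb and Cebpd, the C/EBP factors of the pathway, were at 0.13 and 0.16.

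Of 18 detected genes of hyperproliferating and stressed epidermis, 7 passed the 2-fold line upward and 0 downward, 13 were above 0 and the median was 0.65. With lower bounds where they apply, that median was 0.52. Krt6b, a keratin of wounded and hyperproliferating epidermis, read 15672 in IL-17A + IMQ skin, against 1447 in GFP + IMQ skin, a difference of 10.4-fold. Its partner Krt16 read 19454 in IL-17A + IMQ skin, against 3632 in GFP + IMQ skin, or 5.04-fold higher, and Krt6a was 4.04-fold higher. Csta3, a stefin-type inhibitor of cysteine proteases, read 1399 in IL-17A + IMQ skin, against 68.8 in GFP + IMQ skin, a difference of 10.8-fold. Its neighbour Cstdc4 was 5.75-fold higher, Stfa2 4.86-fold and Stfa1 2.46-fold. Which cells of the skin these stefin signals come from was not tested. Serpinb3a, a serpin of inflamed epithelium, read 836 in IL-17A + IMQ skin, against 78.4 in GFP + IMQ skin, or 6.11-fold higher, while its second probe had a log2 difference of 0.64.

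The cornified envelope families, which build the outer shell of the epidermis, split. The small proline-rich genes Sprr2d and Sprr2e read 9432 and 2027 in IL-17A + IMQ skin, against 1452 and 265 in GFP + IMQ skin, differences of 6.17-fold and 6.08-fold. Together 6 of 13 Sprr genes were at least 2-fold higher and 12 of 13 were above 0, and the 5 genes from Sprr2d to Sprr2i lie side by side. Of 5 Lce3 genes, tied to repair of the barrier, 3 were at least 2-fold higher: Lce3f at 4.44-fold, Lce3e at 3.92-fold and Lce3b at 3.05-fold, whose second probe had a log2 difference of 2.83. The 12 Lce1 genes, expressed in undisturbed cornifying epidermis, were all below 0, with a median of -0.41 and a range of -0.80 to -0.05, and 0 reached 2-fold. With median scaling in place of quantile normalization 11 of the 12 were below 0. Among 22 other barrier genes Rptn, which encodes repetin, was 2.87-fold higher, and the median was -0.06. Loricrin (Lor), involucrin (Ivl) and filaggrin-2 (Flg2) had log2 differences of -0.28, -0.21 and -0.74. Probes of the Sprr2, Lce, Stfa, Serpinb and Krtap families may also read a near-identical relative's transcript.

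Other epithelial genes followed. Gjb2 and its neighbour Gjb6, connexins of gap junctions, were 4.50-fold and 3.15-fold higher. Gjb2 read 3716 in IL-17A + IMQ skin, against 746 in GFP + IMQ skin. Gsta4, a glutathione transferase that removes products of lipid peroxidation, read 1449 in IL-17A + IMQ skin, against 156 in GFP + IMQ skin, a difference of 6.58-fold. Klk6, a kallikrein protease, was 2.26-fold higher and the serpin Serpinb6c 2.93-fold. Wfdc2, a whey acidic protein-type secreted protein, read 344 in IL-17A + IMQ skin, against 5.98 in GFP + IMQ skin, below the limit there, and was at least 5.39-fold higher. Krt8, a keratin of simple epithelia, was at least 2.46-fold higher. The EGF receptor ligand Hbegf was 2.38-fold higher and Phlda1, a gene induced by growth factors, 2.42-fold, while Btc, which encodes the ligand betacellulin, was 2.88-fold lower with signals of 170 in IL-17A + IMQ skin, against 560 in GFP + IMQ skin. In cell cycle and replication genes 0 of 31 passed the line, with a median of 0.18 and Cdc20, an activator of mitotic exit, highest at 0.83.

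In the matrix group, Tnc, which encodes the wound-induced glycoprotein tenascin C, read 1893 in IL-17A + IMQ skin, against 123 in GFP + IMQ skin, a difference of 10.2-fold. Timp1, an inhibitor of metalloproteinases, was 3.86-fold higher, and the proteases Mmp13 and Mmp9 2.20-fold and 2.04-fold. These were the 4 of 22 genes past the line. A second Mmp13 probe had a log2 difference of 0.16, and with probes averaged Mmp13 was under 2-fold. Of 21 collagen genes 0 passed it, and the median was -0.04 (0.02 with median scaling), with Col1a1 at -0.48 and Col3a1 at -0.04.

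**Figure D3:**
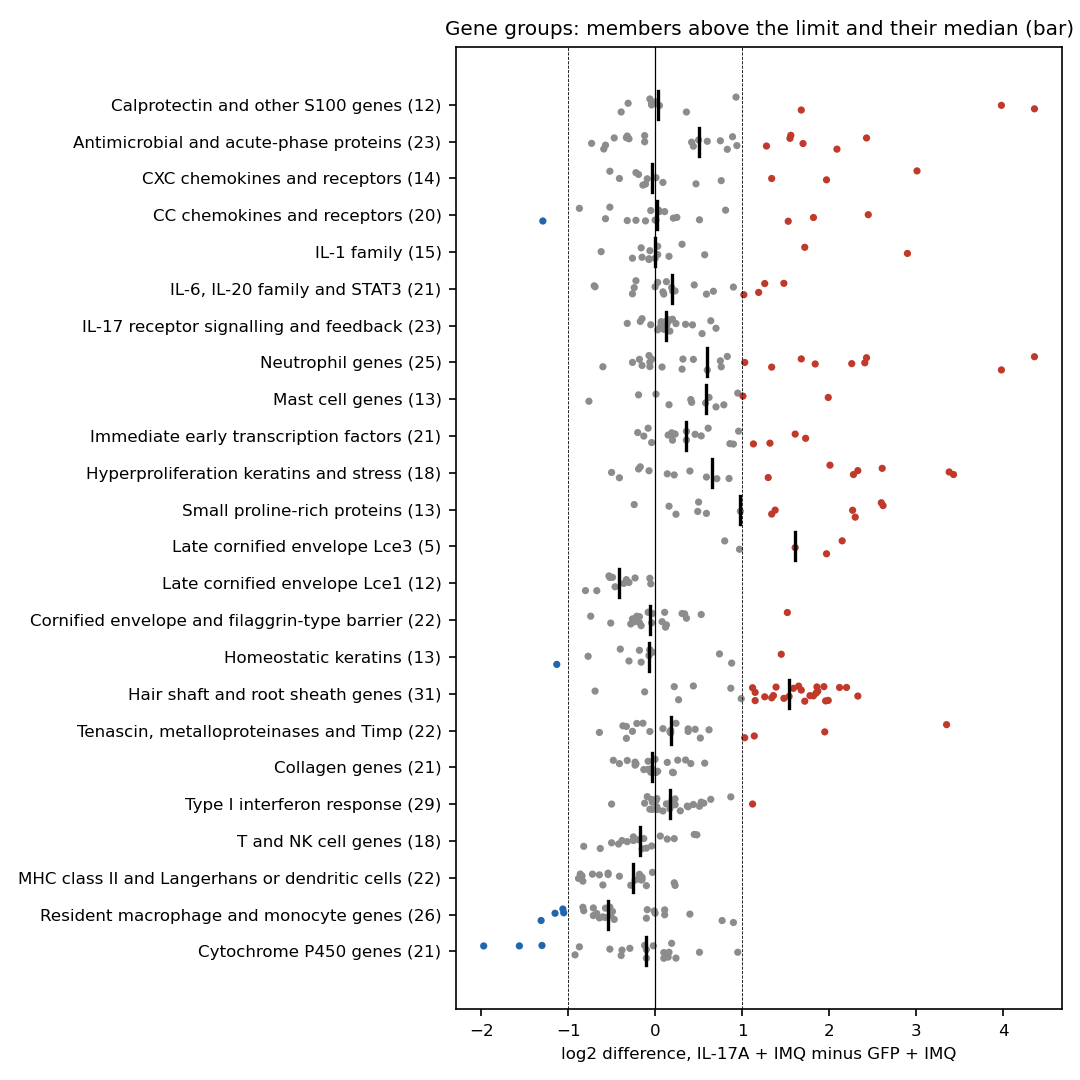
Each point is 1 detected member of a gene group, placed by its log2 difference, IL-17A + IMQ minus GFP + IMQ; the black bar is the group's median, red and blue mark genes at least 2-fold higher and lower, and numbers in brackets count the members. The Lce3 and hair shaft medians, 1.61 and 1.54, lie past the 2-fold line, the 12 Lce1 genes all lie below 0 (11 with median scaling), and the macrophage median is -0.54.

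Genes of infiltrating cells differed by type, and in whole skin fewer cells of a type and less RNA per cell cannot be told apart. Of 25 detected neutrophil genes 9 passed the 2-fold line upward and 0 downward, 17 were above 0 and the median was 0.60. Over the 24 above the limit on an IMQ array, with lower bounds where they apply, the median was 0.49. With the authors' normalized values, 14 of the 25 were higher. Retnlg, a resistin-like gene of neutrophils, read 444 in IL-17A + IMQ skin, against 30.6 in GFP + IMQ skin, or 5.31-fold higher. Clec4d, a lectin receptor of myeloid cells, was 4.80-fold higher, and Fpr2, a receptor for formylated peptides, 3.58-fold. Acod1, which makes itaconate in activated myeloid cells, was at least 2.89-fold higher, and its second probe had a log2 difference of 0.74. The granule genes Elane and Mpo of immature neutrophils were at -0.06 and 0.08 on the log2 scale. The 3 detected defining markers, Cxcr2, Csf3r and Retnlg, summed to a signal of 731 in IL-17A + IMQ skin and 95.5 in GFP + IMQ skin, and Ly6g was not named on this array. S100a8, S100a9 and Lcn2 are on this list and are also expressed by keratinocytes. The part of neutrophils in their differences was not tested.

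Of 13 detected mast cell genes 2 passed the line, Hdc and Tpsb2, 11 were above 0 and the median was 0.58. The authors' normalized values put 4 past the line and quantile normalization over the 2 IMQ arrays 1, with Tpsb2 under it. Hdc, which makes histamine, read 1198 in IL-17A + IMQ skin, against 239 in GFP + IMQ skin, a difference of 3.96-fold, and its second probe had a log2 difference of 1.18. Tpsb2, a tryptase, read 220 in IL-17A + IMQ skin, against 72.5 in GFP + IMQ skin, or 2.02-fold higher. The proteases Cpa3, Cma1 and Mcpt4 had log2 differences of 0.95, 0.79 and 0.70. Hdc departed from the proteases without IMQ, where its log2 difference, IL-17A minus GFP, was 0.83. Those of Cpa3, Cma1, Mcpt4 and Tpsb2 were -0.32, -0.29, -0.50 and -0.41 there. Whether the Hdc signal comes from mast cells was not tested. The 4 markers together read 2755 in IL-17A + IMQ skin and 1328 in GFP + IMQ skin. On the other 2 arrays they read 2057 in IL-17A skin and 2684 in GFP skin, so that GFP + IMQ skin was the lowest of the 4.

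Of 26 detected macrophage genes 4 passed the 2-fold line downward and 0 upward, 5 were above 0, and the median was -0.54. With median scaling 2 of the 26 were at least 2-fold lower, Folr2 and Ly86 being under that line, and with the probes of a gene averaged Lyz2 was under it. Cd209f, a C-type lectin of dermal macrophages, read 1750 in IL-17A + IMQ skin, against 4092 in GFP + IMQ skin, a difference of 2.47-fold. Lyz2, the lysozyme gene of myeloid cells, read 2605 in IL-17A + IMQ skin, against 5541 in GFP + IMQ skin, or 2.23-fold lower, and its second probe had a log2 difference of -0.79. Folr2, a folate receptor of tissue macrophages, was 2.07-fold lower and Ly86 2.08-fold. The 3 detected markers Adgre1, Csf1r and Cd163 had log2 differences of -0.52, -0.57 and -0.10 and summed to 2149 in IL-17A + IMQ skin and 2525 in GFP + IMQ skin. The complement genes C1qa, C1qb and C1qc, which macrophages make, were at -0.73, -0.82 and -0.84, under the 2-fold line.

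Of 18 detected T and NK cell genes 0 passed the line, 5 were above 0 and the median was -0.17. Only 15 of the 18 were above the limit on an IMQ array. The T cell receptor complex genes Cd3d, Cd3e and Cd3g read 40.0, 52.5 and 88.8 in IL-17A + IMQ skin, against 90.6, 87.2 and 191 in GFP + IMQ skin. Their log2 differences were -0.63, -0.42 and -0.82, and their summed signal was 181 in IL-17A + IMQ skin and 369 in GFP + IMQ skin. Cd207, the langerin gene of Langerhans cells, read 232 in IL-17A + IMQ skin, against 433 in GFP + IMQ skin, with a log2 difference of -0.84, and the class II genes H2-Eb1 and H2-Ab1 were at -0.88 and -0.72. Of 22 genes of class II antigen presentation and of Langerhans or dendritic cells 0 passed the line, 2 were above 0 and the median was -0.25. The markers Cd207, H2-Aa, H2-Eb1 and Itgax summed to 3487 in IL-17A + IMQ skin and 5170 in GFP + IMQ skin. Most of that gap was H2-Eb1, which read 1778 in IL-17A + IMQ skin and 3127 in GFP + IMQ skin. H2-Aa and Itgax had log2 differences of -0.23 and 0.23, and Itgax was below the limit in GFP + IMQ skin. The eosinophil markers Epx, Prg2 and Siglecf were below the limit on all 4 arrays. Skint genes, a family named for its role in maintaining T cells of the epidermis, were picked for a count after their values had been seen: 6 of 6 detected were below 0, with a median of -0.84. Skint9 read 875 in IL-17A + IMQ skin, against 2116 in GFP + IMQ skin, or 2.49-fold lower, and the neighbours Skint10 and Skint6 were 2.08-fold and 2.09-fold lower. With median scaling Skint9 alone of the 3 stayed past the line.

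The other genes at the low end were not of 1 list. Hamp2, a relative of the iron hormone hepcidin, read 51.2 in IL-17A + IMQ skin, against 418 in GFP + IMQ skin, a difference of 4.48-fold. Cyp2g1, a cytochrome P450 known from olfactory tissue, read 526 in IL-17A + IMQ skin, against 2092 in GFP + IMQ skin, or 3.93-fold lower. It was 1 of 3 members at least 2-fold lower in the cytochrome P450 list of 21 detected genes. In that list 0 were at least 2-fold higher, 8 were above 0 and the median was -0.10. Over all genes 0.283% were lower by 2-fold. Inmt, an indolamine methyltransferase, read 1694 in IL-17A + IMQ skin, against 4892 in GFP + IMQ skin, a difference of 2.96-fold. Cyp17a1, a steroid hydroxylase, was 2.47-fold lower, the serpin gene Serpinb6e 3.17-fold and Nnat, which encodes neuronatin, 2.82-fold. Pdk4, an inhibitor of pyruvate dehydrogenase, read 991 in IL-17A + IMQ skin, against 2225 in GFP + IMQ skin, or 2.32-fold lower. Krt77, a suprabasal keratin, read 4108 in IL-17A + IMQ skin, against 8714 in GFP + IMQ skin, a difference of 2.18-fold. Ear3, a ribonuclease gene of the eosinophil-associated family, and Idi2, an isomerase of sterol synthesis, were 2.87-fold and 2.54-fold lower by their brighter probes, while their second probes were lower by under 1.5-fold. For lower genes as a whole, 9 of 12 second probes were lower by at least 1.5-fold.

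Hair shaft and root sheath genes made up the largest group of higher genes. Of 31 detected members 24 passed the 2-fold line upward and 0 downward, and the median was 1.54. Counting the keratin-associated protein (Krtap) family as well, 44 of the 135 higher genes belonged here. Krt27, a keratin of the inner root sheath, read 8316 in IL-17A + IMQ skin, against 2149 in GFP + IMQ skin, a difference of 3.64-fold. Krtap7-1, which encodes a protein of the hair shaft matrix, read 4300 in IL-17A + IMQ skin, against 1064 in GFP + IMQ skin, or 3.66-fold higher. Krt33b, a hair cortex keratin, read 1310 in IL-17A + IMQ skin, against 221 in GFP + IMQ skin, a difference of 4.61-fold. The 4 markers Krt27, Krt71, Krt33a and Krt34 summed to 19930 in IL-17A + IMQ skin and 4993 in GFP + IMQ skin, to 12275 in IL-17A skin and to 6.91 in GFP skin. Of the growth-phase regulators of the follicle 0 of 24 passed the line, and their median was -0.01. The melanocyte markers Dct, Tyrp1 and Mlana, which mark pigment cells of growing follicles, had log2 differences of 0.10, 0.34 and 0.55. The part of the hair cycle in these values was not tested. Without the hair list and the Krtap genes, a choice made after the data were seen, 91 genes were higher and 36 lower.

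**Figure D4:**
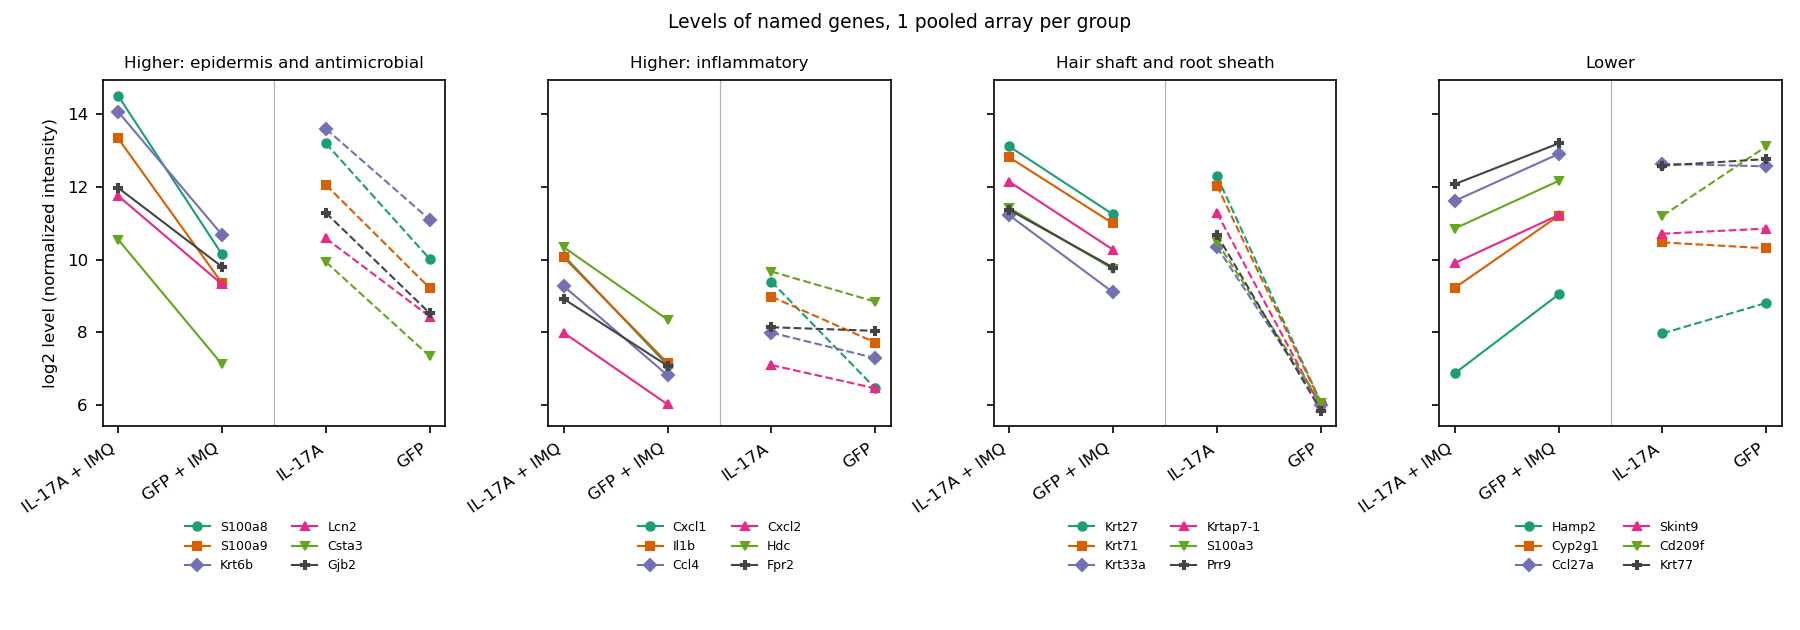
Log2 levels (normalized intensity) of 24 named genes on the 4 arrays, 1 pooled array per group; lines join IL-17A + IMQ to GFP + IMQ (solid) and IL-17A to GFP (dashed). Hair shaft genes are at the floor in GFP skin without IMQ, while S100a8 and S100a9 are at nearly the same level in GFP + IMQ and GFP skin.

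Some called genes lay side by side in the genome. Of 133 higher genes placed in the RefSeq order of protein-coding genes, 43 (32.3%) were next to another higher gene, in 16 runs. Of 33 lower genes so placed, 2 (6.06%) were next to each other, Skint10 and Skint6. The 2 shares cannot be compared, since a called neighbour is more likely where more genes are called. The runs were of hair keratins, Krtap genes, Sprr2 genes and pairs such as Ccl3 and Ccl4, Chil3 and Chil4, and Krt6a and Krt6b. Most are families of related genes, and no count for randomly placed genes was made.

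Set beside the same contrast without IMQ, which shares no array with it, the higher genes ran mostly the same way. Without IMQ, 107 genes (0.841%) were higher in IL-17A skin than in GFP skin by 2-fold or more, and 126 (0.990%) were lower by as much. In 53 of the 107, GFP skin was not above its limit. With those folds as lower bounds, 99 of the 107 stayed at 2-fold or more. Of the 135 genes higher under IMQ, 91 were also higher without it, which is 67.4% of the 135 and 85.0% of the 107. All 44 hair list and Krtap genes of the 135 were among these 91, so the shared part of the other higher genes is smaller. The 2 medians of these 135 genes were 1.56 with IMQ and 1.49 without, but they mix groups that went unlike ways. Over detected members, the hair list's median was 1.54 with IMQ and 2.55 without, and that of Krtap genes 1.52 and 2.55. Only 2 of 35 Krtap genes were above the limit in GFP skin, so the Krtap median without IMQ depends on the floor and the offset. For the Sprr, Lce3 and neutrophil lists the median was 0.98, 1.61 and 0.60 with IMQ and 0.68, 1.20 and 0.19 without. Of the 36 lower genes, 9 were also lower without IMQ, which is 25% of the 36 and 7.14% of the 126. The medians of the 36 were -1.20 with IMQ and -0.45 without. Both sets had been picked by their values with IMQ, which by itself makes the medians with IMQ larger in size. Over all 12729 genes the log2 differences had a Pearson correlation of 0.54 and a Spearman correlation of 0.31, given as a description across genes, whose values share the chip and the normalization. The difference between the 2 contrasts could not be tested with 1 array in each group.

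**Figure D5:**
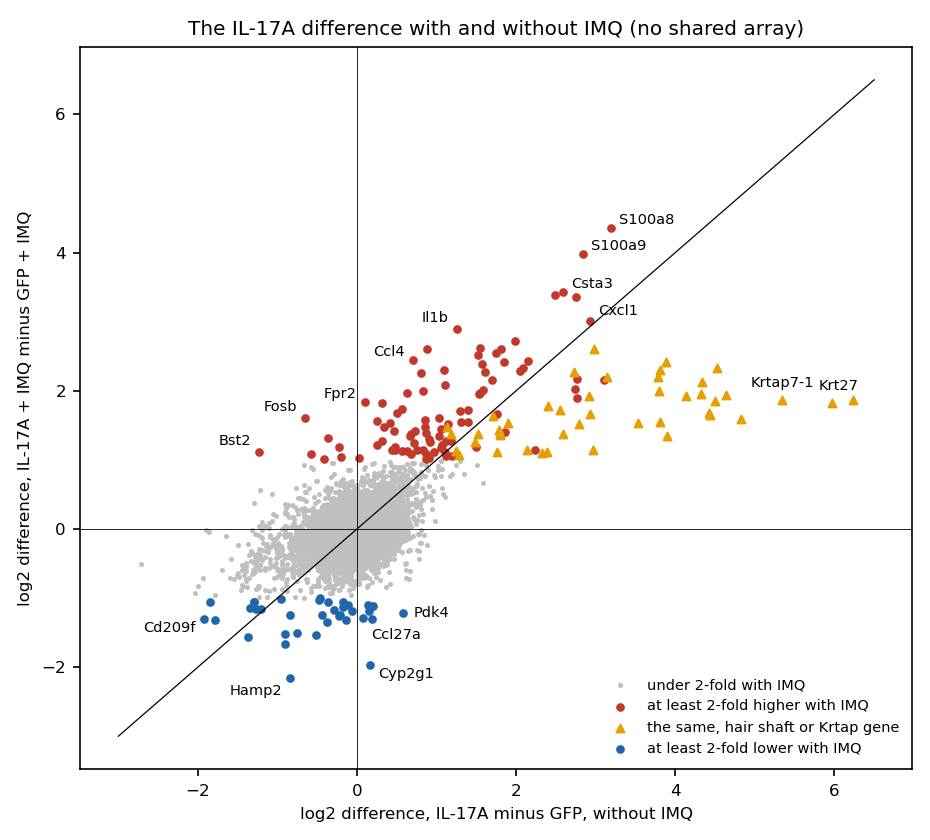
Each point is 1 of 12729 genes, with the log2 difference IL-17A + IMQ minus GFP + IMQ on the vertical axis and IL-17A minus GFP without IMQ on the horizontal axis; the solid diagonal marks equal differences. Most hair shaft and Krtap genes (triangles) lie right of the diagonal, most other higher genes lie above it, and Bst2 is higher with IMQ and lower without.

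Several genes had unlike values in the 2 contrasts. Cyp2g1, Ccl27a, Cyp17a1 and Pdk4 had log2 differences of -1.97, -1.29, -1.30 and -1.21 with IMQ and 0.16, 0.07, 0.19 and 0.58 without. Fpr2 and Ccl4 were at 1.84 and 2.45 with IMQ and at 0.10 and 0.71 without. Fpr2 read 415 in IL-17A + IMQ skin, 65.6 in GFP + IMQ skin, 232 in IL-17A skin and 209 in GFP skin. For Ccl4 the 4 values were 545, 44.9, 201 and 96.6. GFP + IMQ skin was the lowest array for both genes, so their larger differences with IMQ include a lower control. Mmp9, at 1.03 with IMQ and 0.03 without, read 246, 83.5, 242 and 231 in that order, nearly alike in the 2 IL-17A groups. Cd209f and Lyz2, of macrophages, were at -1.31 and -1.15 with IMQ and at -1.92 and -1.35 without, and the macrophage list's median was -0.54 with IMQ and -1.22 without. Of 29 type I interferon genes 1 passed the line with IMQ, upward, and the median was 0.17, against a median of -0.48 without. That gene was Bst2, an antiviral membrane protein. It read 560 in IL-17A + IMQ skin, 207 in GFP + IMQ skin, 262 in IL-17A skin and 689 in GFP skin. The interferon-induced genes Isg15 and Oasl2 were at 0.87 and 0.56 with IMQ and at -0.55 and -1.22 without.

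Immediate early genes, which cells switch on within minutes of a stimulus or of handling, had 4 of 21 members past the line upward and 0 downward, and their median was 0.36. The AP-1 genes Fos and Fosb were 3.32-fold and 3.06-fold higher, Egr1 2.19-fold and Ccn1 2.49-fold. A second Ccn1 probe had a log2 difference of 0.58, and with probes averaged Ccn1 was under 2-fold and 3 of the 21 passed the line. Fosb read 216 in IL-17A + IMQ skin, 27.1 in GFP + IMQ skin, 137 in IL-17A skin and 251 in GFP skin, and for Ccn1 the 4 values were 215, 46.2, 167 and 233. For both genes GFP + IMQ skin was the lowest of the 4 arrays. The part of handling in these values was not tested.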

How the data were processed

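RNA of dorsal skin, pooled from 6 mice per array, was measured on 4 Illumina mouse bead arrays after biotin labelling of cRNA, per the labels' protocols. For 45281 probes the authors deposited a linear intensity on each array. A background had been subtracted from it, since 32.3% to 33.7% of values were below 0, and no detection p-values or control probes came with it. The authors also deposited their own normalized values, on a log2 scale. Which program made them is not given in the sources used here.

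In limma 3.58.1 (R 4.3.3), the normexp method (offset 50) corrected the background, the 4 arrays were quantile-normalized, and log2 was taken last. The design had named detection p-values or control probes first, and as neither was there its second route was used. For each array, the noise was taken as the values below 0 and their mirror image, and the detection limit as the level exceeded by a share of 0.01 of it. Limits were 11.6 to 12.7, and 45.2% to 45.8% of probes lay above them. The number of arrays limits the precision. The platform annotation gave 34885 probes 1 gene symbol, 18 several and 10378 none. A gene was represented by its probe with the highest mean among those above the limit on at least 1 array. It was called at a log2 difference of at least 1 with the brighter array above its limit. If the dimmer array was below its limit, the fold is a lower bound: the dim level was set to the array's lowest detected level, or to the gene's own if higher. Groups came from the sample labels. No test was made, since each group has 1 array. The normalization and calling steps were also run on simulated data, where only bright probes were changed, by a fold well past the line. That run cannot speak to calls near 2-fold, to dim genes or to lower bounds. Python 3.11.15, numpy 2.4.6, pandas 2.3.3 and matplotlib 3.10.9 did the rest.

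The named genes are Il17a, the 25 called genes that differed most on each side, every called member of 57 gene lists with up to 5 further members of each, all members of the IL-17 receptor, IL-23 and TNF, IL-1 and EGF receptor lists, the 10 genes on each side that differed most between the contrasts with and without IMQ, and called genes next to another called gene. Cell type markers stand beside them. Some further members of the lists are named as examples of their group, and these were chosen after their values were seen. The comparison, the lists and the rule were chosen with earlier results of these data known. Alternatives were no background step, an offset of 16, median scaling, quantile normalization over the 2 IMQ arrays, the authors' values, the mean of a gene's probes, stricter or no detection and other fold thresholds.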

Additional observations from a re-analysis of the deposited data

Results flagged for a closer look

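Bst2, an antiviral interferon-induced membrane protein, had opposite signs in the 2 contrasts: its log2 difference was 1.12 in IL-17A + IMQ skin against GFP + IMQ skin, and -1.23 in IL-17A skin against GFP skin without IMQ. The difference between these values was not tested, as each group has 1 array.

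Among the 10396 probes without 1 gene symbol, 3406 were above the limit on an IMQ array, and by 2-fold or more 31 of them were higher in IL-17A + IMQ skin and 12 lower. The largest difference on the higher side was that of ILMN_2581604, with a log2 difference of 3.73 and signals of 1110 in IL-17A + IMQ skin and 24 in GFP + IMQ skin. Next came ILMN_2657431, at 2.79, with 5158 in IL-17A + IMQ skin and 644 in GFP + IMQ skin. On the lower side ILMN_1252338 was at -1.53 and ILMN_2925653 at -1.36. These probes are unnamed here.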

How the results depend on the processing

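Over 8 other settings, 0 of the 132 named called genes changed direction and 118 stayed at least 2-fold in every setting that gave a value. The other 14 fell under 2-fold in some setting: Folr2, Gpx3, Ly86, Skint10 and Skint6 with median scaling, Tpsb2 with quantile normalization over the 2 IMQ arrays, and Ccn1, Ear3, Idi2, Lyz2, Mmp13, Nmrk2, Saa1 and Serpinb12 when the probes of a gene were averaged. The 132 genes had been picked by their main values, and not every called gene is among them. Over all genes the SD of the log2 difference was 0.32 in the main values. It was 0.39 with an offset of 16 and 0.44 with no background correction or the authors' values. Wider differences in those settings could hardly take a call away. With stricter or no detection the levels were those of the main normalization, so a call could hardly be lost there either. The 135 higher and 36 lower genes became 267 and 127 with no background correction, 252 and 109 with the authors' values, 321 and 238 at a 1.5-fold threshold and 66 and 3 at a 3-fold threshold. An offset of 16, which adds less to the signal of dim genes, gave 187 and 65. Median scaling gave 143 and 28 and moved the median of all genes by 0.05 on the log2 scale. For the changed counts the cause was not tested. Without hair shaft and Krtap genes, a choice made after the data were seen, 91 and 36 remained. Of 57 list medians, 7 changed sign in some setting, all close to 0. No paired analysis was possible because each group has 1 array, and no replicate could be left out for the same reason. Differences of dim genes are understated by the offset, and below the limit only bounds can be given.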

Other observations

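Further gene groups of the skin held few or no members past the 2-fold line between IL-17A + IMQ skin and GFP + IMQ skin. Over all 12729 genes 1.06% were higher and 0.283% lower by as much, so 0 in a short list is near the overall share. Of 23 skeletal muscle genes, of the thin muscle layer under dorsal skin, 0 passed the 2-fold line, and the median was -0.03. Acta1 and Ckm, actin and creatine kinase of muscle, had log2 differences of 0.07 and -0.04. Of 16 adipocyte genes 0 passed it, with Adipoq, which encodes adiponectin, at 0.06. Of 24 respiratory chain genes 0 passed it, and of 20 endothelial and adhesion genes 0, where Selp, the P-selectin that slows leukocytes on vessel walls, was highest at 0.77.

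In lipid and clock genes, single members stood out. Of 21 sebaceous and fatty acid synthesis genes 0 passed the line, and Cidea, a lipid droplet gene of sebaceous glands, was at -0.71 with IMQ and 0.61 without. In the group of 25 ceramide and lipoxygenase genes of the barrier, Alox12e, an epidermal lipoxygenase, read 343 in IL-17A + IMQ skin, against 783 in GFP + IMQ skin, or 2.26-fold lower. Of 14 clock output genes 0 passed the line. Dbp, a clock-driven transcription factor, was at -0.85 and Bhlhe40, a repressor of the clock, at 0.87. Errfi1, a feedback inhibitor of the EGF receptor, was at 0.59 with IMQ and -0.77 without, and no test of that difference was possible.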
